A study of Mus musculus with 8 samples.

Results

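The proteasome genes were taken as every gene whose symbol begins with Psma, Psmb, Psmc, Psmd, Psme, Psmf or Psmg followed by a number and that has a probe set annotated with that symbol alone. This pattern found 49 genes of the 22180 that have such a probe set, and the brightest probe set over all 8 arrays stood for each gene. Of these, 47 encode subunits, assembly chaperones, activators or an inhibitor of the proteasome. The pattern also caught Psmc3ip, which encodes a partner of the meiotic recombination machinery, and Psme3ip1, which encodes an interactor of the PSME3 activator. RNA came from sorted thymocytes of C57BL/6 mice that were single-positive for CD4 (CD4SP), a stage that follows selection and precedes exit from the thymus. The KO group is 4 arrays with the genotype label Pggt1b_KO, and the WT group is 4 arrays of wild-type cells. They are called KO 1 to KO 4 and WT 1 to WT 4 here, and these numbers pair no arrays. The sources used here do not say how and in which cells Pggt1b was deleted, the age or sex of the animals, or whether each array stands for a separate animal. The p-values therefore reflect the spread among these arrays, which may be technical. Pggt1b encodes the catalytic subunit of GGTase-I, the enzyme that attaches a mevalonate-derived lipid to small GTPases.

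The proteasome degrades proteins that carry ubiquitin chains. Its barrel-shaped core particle has outer rings of alpha subunits (Psma genes) and inner rings of beta subunits (Psmb genes), among which PSMB5, PSMB6 and PSMB7 cut peptide bonds, and in lymphoid cells PSMB8, PSMB9 and PSMB10 can take their places to form the immunoproteasome, which supplies peptides for MHC class I. A regulatory particle made of a base with ATPases (Psmc genes) and a lid (Psmd genes) binds, unfolds and feeds the substrates, while PSME proteins are alternative caps and PSMG proteins help to build the core.

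Pggt1b itself had log2 values of 7.89, 7.57, 7.69 and 7.86 in KO 1 to KO 4, against 8.35, 8.38, 8.29 and 8.36 in WT 1 to WT 4. The KO arrays all lay below the WT arrays, 1.51-fold lower on average (adjusted p = 0.00141, limma), with a level in KO cells that stayed above the intensity filter. All values are log2 RMA intensities, made by the authors. The array medians were 5.57, 5.59, 5.58 and 5.58 in KO 1 to KO 4, against 5.58, 5.52, 5.54 and 5.54 in WT 1 to WT 4. Genes with a mean below 5.56, the median over the probe sets, were not tested. The test was limma with adjustment over 11585 genes, and a gene was called lower or higher in KO at an adjusted p under 0.05. No CD4 T cell marker of 7 measured was called, where 8.53% of all tested genes were called lower and 4.45% higher (limma). None lay lower or higher at an unadjusted p under 0.05, where 19.2% of all genes lay lower. Their mean level was 11.51 to 11.57 in KO arrays and 11.57 to 11.59 in WT arrays. The mean of 3 CD8-lineage markers was 8.90 to 9.33 in KO arrays and 9.42 to 9.68 in WT arrays. Of these, Cd8a was called lower (difference -0.74, adjusted p = 0.0354). Cd8b1 was not called and overlapped (-0.13, adjusted p = 0.279), and Runx3 was not called but did not overlap (-0.20, adjusted p = 0.0822). The 4 double-positive thymocyte markers measured averaged 6.75 to 6.94 in KO arrays and 6.93 to 7.15 in WT arrays. B cell, myeloid and thymic epithelial marker means overlapped between the genotypes, and of the 6 epithelial markers measured, Foxn1, Prss16 and Epcam lay below the filter and Krt8, Aire and Ctsl above it. In sorted bulk RNA, fewer cells of one kind and less RNA per cell cannot be told apart, and the part of these markers in the proteasome results was not tested.

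Nearly all proteasome transcripts had lower mean values in KO thymocytes, each by a small amount. Of the 46 members tested, 13 were called lower in KO, or 28.3%, where 8.53% of all tested genes were called lower. Among the 6224 tested genes with a mean log2 of at least 8, the brightness range of most members, 8.88% were called lower. None was called higher, where 4.45% of all genes were (limma; also 0 members at an unadjusted p under 0.05). The difference was below 0 in 45 of the 46, against 59.1% of all tested genes, and Psmg4 was the exception, although it too lay below 0 when each array was centred on its median. At an unadjusted p under 0.05, 27 members lay lower in KO, or 58.7%, where 19.2% of all genes did. In 20 members, or 43.5%, every KO array lay below every WT array, which 13.5% of all genes showed. The median difference was -0.16, against -0.03 over all tested genes. As deposited, 988 genes were called lower and 515 higher, and 1321 lower and 383 higher when each array was centred on its median, which called 15 members lower and none higher. The single differences were small, and the called members were 1.13-fold to 1.27-fold lower in KO.

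**Figure D1:**
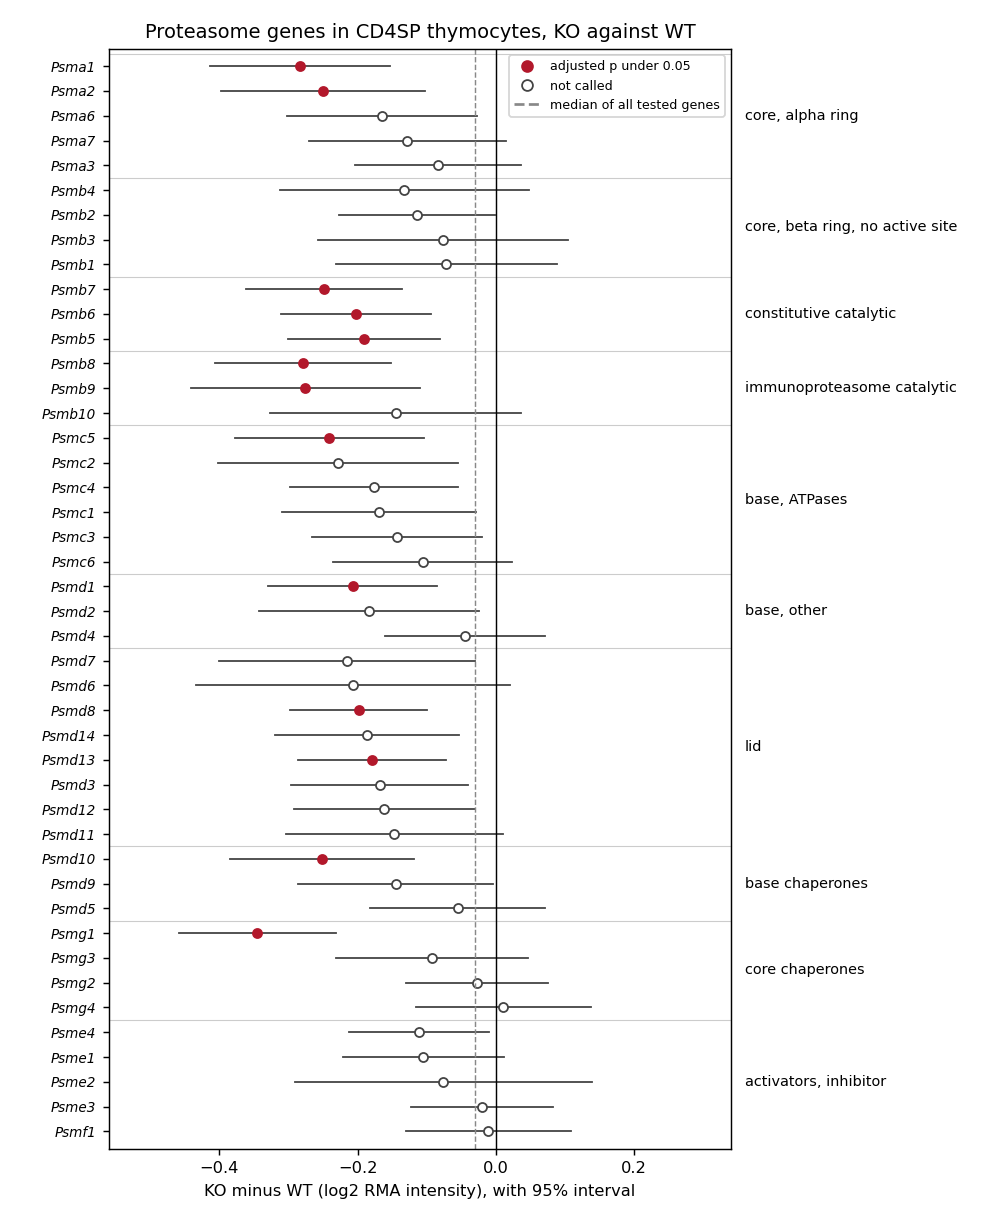
KO minus WT difference of each of the 44 tested proteasome subunits and factors, with its 95% interval from limma, on the log2 scale, grouped by role. Filled points mark the 13 called members, all left of 0, and the dashed line marks the median of all tested genes, -0.03. Only Psmg4 lies right of 0, and it lies at -0.023 when each array is centred on its median.

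Both interacting proteins caught by the name pattern were left out of the summaries by role. Psmc3ip differed by -0.17 (adjusted p = 0.117) and Psme3ip1 by -0.02 (adjusted p = 0.866), and neither was called. For the remaining 44, the median difference was also -0.16, with a range of -0.34 for Psmg1 to 0.01 for Psmg4. Of these, 43 lay below 0. The lowest of them in level, Psmg3 and Psmb3, still had mean log2 values of 6.88 and 6.95, above the filter. The median standard error of a member was 0.058, against 0.068 over all tested genes.

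**Figure D2:**
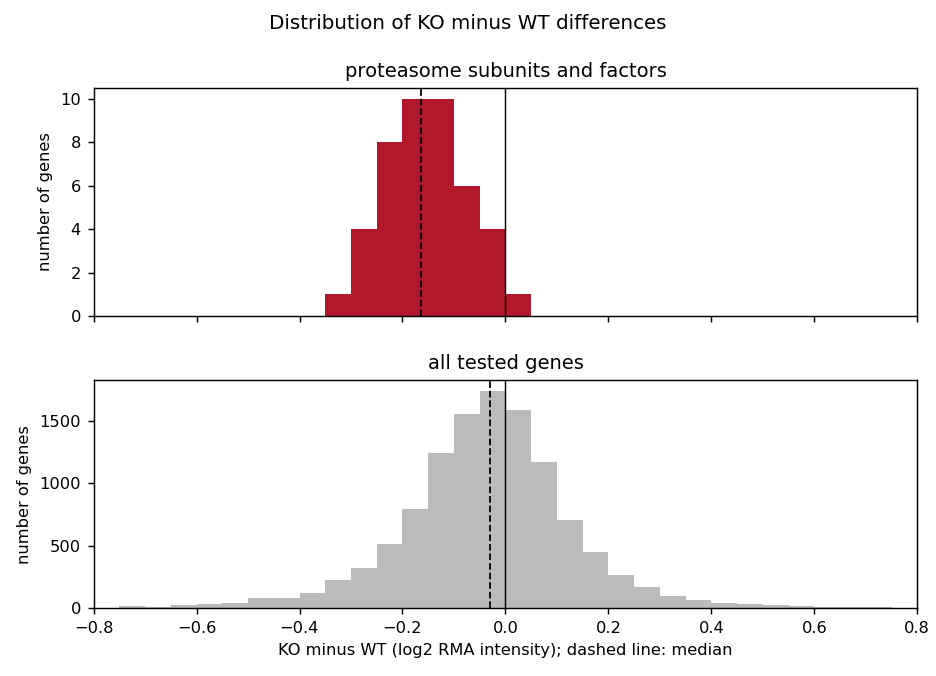
Number of genes by KO minus WT difference on the log2 scale, for the 44 tested proteasome subunits and factors and for all 11585 tested genes. The members sit to the left of 0, with a median of -0.16, while the median of all tested genes is -0.03.

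The alpha ring gates the entrance to the core. All 5 tested Psma genes had differences below 0, with a median of -0.16, and 2 of them fell (40%, against 8.53% of all tested genes). Psma1 had log2 values of 9.92, 10.01, 9.92 and 9.93 in KO 1 to KO 4, against 10.37, 10.17, 10.21 and 10.16 in WT 1 to WT 4. The groups did not overlap, and the 4 KO arrays were closer to each other than the WT arrays, of which WT 1 was highest. The mean was 9.95 ± 0.042 in KO cells and 10.23 ± 0.097 in WT cells (SD, n = 4 each), a difference of -0.28 ± 0.058 (SE), or 1.22-fold lower in KO (95% interval of the log2 difference -0.41 to -0.15; adjusted p = 0.0138). Its promoter from RefSeq (GRCm38.p6, chr7:114276067-114276366, minus strand, 250 bases before to 50 after the transcript start) is shown because it holds CCAAT, the letters bound by NF-Y, on both strands, marked in capitals.
Psma1: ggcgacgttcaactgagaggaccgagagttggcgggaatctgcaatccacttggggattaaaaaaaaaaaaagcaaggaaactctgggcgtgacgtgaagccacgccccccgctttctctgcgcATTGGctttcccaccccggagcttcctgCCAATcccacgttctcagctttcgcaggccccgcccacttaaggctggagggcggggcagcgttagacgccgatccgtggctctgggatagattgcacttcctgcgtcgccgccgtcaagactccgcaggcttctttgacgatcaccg
Psma2 had values of 9.35, 9.27, 9.20 and 9.36 in KO 1 to KO 4, against 9.44, 9.52, 9.52 and 9.70 in WT 1 to WT 4. Again no KO array reached the lowest WT array, and WT 4 was highest. The difference was -0.25 ± 0.066, 1.19-fold lower in KO (adjusted p = 0.0364). The least shifted of the ring was Psma3, with 10.11, 10.17, 10.01 and 10.07 in KO 1 to KO 4 and 10.13, 10.12, 10.18 and 10.26 in WT 1 to WT 4, which overlapped (difference -0.08, adjusted p = 0.339). Between these, Psma6 differed by -0.16 without overlap of the groups (adjusted p = 0.11) and Psma7 by -0.13 (adjusted p = 0.215). When 1 array was left out at a time, Psma1 was called in all 8 fits (adjusted p up to 0.0426). Psma2 was called in 1 of 8, the fit without WT 1, and its adjusted p reached 0.0941 without another array.

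The level of some alpha subunits was not tested. Psma5, an alpha subunit of every proteasome, read only 4.71, 4.74, 4.76 and 4.82 in KO 1 to KO 4 and 4.72, 4.80, 4.73 and 4.74 in WT 1 to WT 4, and its second probe set was dimmer still (mean 4.33). Both probe sets lay below the filter, so these readings do not show how much Psma5 RNA the cells hold. Psma8, the alpha subunit of the testis proteasome, read 4.70, 4.61, 4.44 and 4.30 in KO 1 to KO 4 and 4.55, 4.51, 4.45 and 4.55 in WT 1 to WT 4, also below the filter. Psma4 has probe sets only under several symbols and was not used here.

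The inner beta ring carries the active sites. All of the called Psmb genes encode catalytic subunits, but catalytic and noncatalytic genes were not tested against each other. The median standard error was 0.076 for the noncatalytic genes, 0.049 for Psmb5 to Psmb7 and 0.074 for Psmb8 to Psmb10. All 10 tested Psmb genes lay below 0 (median -0.17), and 5 fell (50%, against 8.53% of all tested genes), namely the 3 constitutive catalytic subunits and 2 of the 3 immunoproteasome subunits. Psmb5, the chymotrypsin-like subunit, had 11.52, 11.56, 11.54 and 11.65 in KO 1 to KO 4, against 11.81, 11.75, 11.71 and 11.76 in WT 1 to WT 4. Psmb6, the caspase-like subunit, had 8.96, 8.89, 8.82 and 8.96 in KO 1 to KO 4, against 9.13, 9.12, 9.08 and 9.11 in WT 1 to WT 4. Psmb7, the trypsin-like subunit, had 9.37, 9.41, 9.28 and 9.398 in KO 1 to KO 4, against 9.66, 9.55, 9.65 and 9.60 in WT 1 to WT 4. In each of these genes the genotypes did not overlap, and KO 3 was lowest for Psmb6 and Psmb7, KO 1 for Psmb5. The difference was -0.25 ± 0.050 for Psmb7 (1.19-fold lower in KO; adjusted p = 0.0132). It was -0.20 ± 0.049 for Psmb6 (1.15-fold; adjusted p = 0.0265). For Psmb5 it was -0.19 ± 0.049 (1.14-fold; adjusted p = 0.0336). Psmb7 was called in all 8 fits that leave out 1 array. Psmb6 was lost without KO 2, KO 3, WT 2 or WT 3 (adjusted p up to 0.0690), and Psmb5 was called only without KO 4 (otherwise up to 0.0929).

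The Psmb5 promoter (RefSeq, GRCm38.p6, chr14:54617946-54618245, minus strand) is shown because it holds, in capitals, TGACNNNGC, the core letters of the antioxidant response element through which NFE2L1 is known to drive proteasome genes.
Psmb5: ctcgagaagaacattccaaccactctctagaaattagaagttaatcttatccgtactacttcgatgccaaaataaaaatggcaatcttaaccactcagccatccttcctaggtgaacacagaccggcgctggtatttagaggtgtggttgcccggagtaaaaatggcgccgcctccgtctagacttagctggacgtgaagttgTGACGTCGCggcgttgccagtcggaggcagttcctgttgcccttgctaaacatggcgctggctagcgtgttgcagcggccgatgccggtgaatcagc
The match begins at position -47, counted from the transcript start.

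Of the immunoproteasome subunits, Psmb8 and Psmb9 fell and Psmb10 did not pass the test. Psmb8, the inducible counterpart of Psmb5, had log2 values of 10.01, 9.97, 9.95 and 10.14 in KO 1 to KO 4, against 10.24, 10.31, 10.25 and 10.37 in WT 1 to WT 4. No KO array reached the lowest WT array. The mean was 10.02 ± 0.083 in KO cells and 10.29 ± 0.060 in WT cells (SD, n = 4 each), a difference of -0.28 ± 0.057 (95% interval -0.41 to -0.15), or 1.21-fold lower in KO (adjusted p = 0.0138), and the call held in all 8 fits that leave out 1 array. Psmb9, the counterpart of Psmb6, had 9.17, 9.20, 9.21 and 9.36 in KO 1 to KO 4, against 9.38, 9.61, 9.42 and 9.65 in WT 1 to WT 4. Its groups were separated by a narrow margin, since KO 4 lay just below WT 1. The mean was 9.24 ± 0.083 in KO cells and 9.51 ± 0.13 in WT cells (SD, n = 4 each), a difference of -0.28 ± 0.074 (95% interval -0.44 to -0.11), 1.21-fold lower in KO (adjusted p = 0.0381). Its call was lost without KO 1, KO 2, KO 3, WT 2 or WT 4 (adjusted p up to 0.101). Psmb10, the counterpart of Psmb7, had 10.64, 10.60, 10.60 and 10.89 in KO 1 to KO 4, against 10.96, 10.70, 10.81 and 10.85 in WT 1 to WT 4. KO 4 was higher than WT 2, WT 3 and WT 4, so the groups overlapped, and the difference of -0.15 ± 0.081 (95% interval -0.33 to 0.04) did not pass the test (adjusted p = 0.269). That interval includes the difference of Psmb8 and Psmb9, so Psmb10 was not shown to differ from them.

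**Figure D3:**
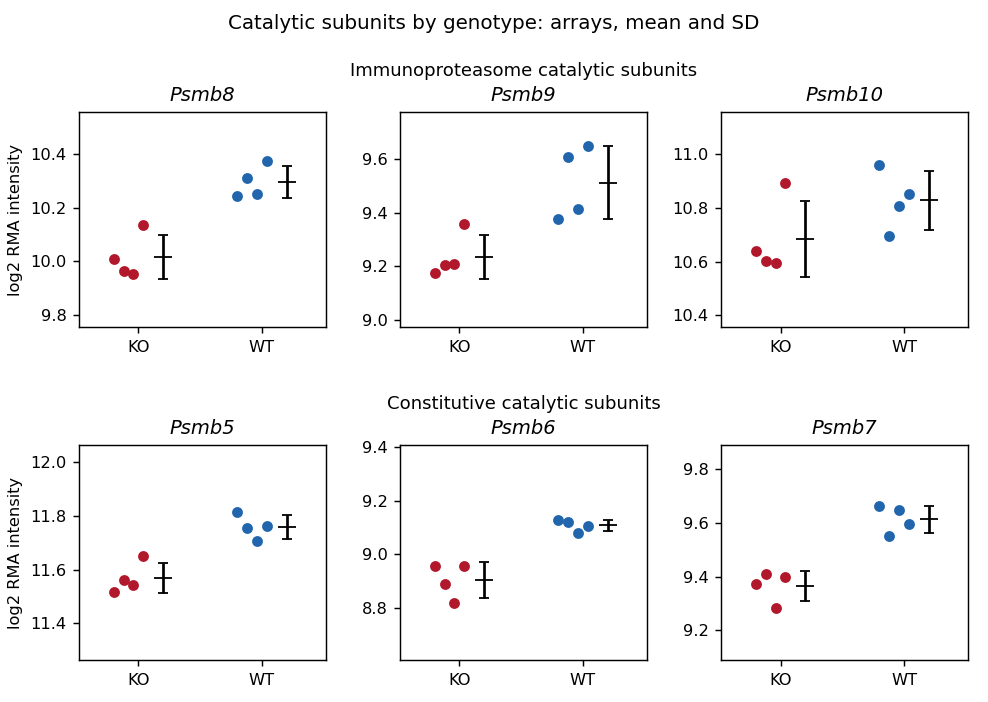
Log2 RMA intensity of the 3 immunoproteasome and 3 constitutive catalytic subunits in each array, KO left of WT, with the mean and SD of each genotype (n = 4). The genotypes separate in every panel but Psmb10, where KO 4 at 10.89 lies among the WT arrays.

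Whether the immunoproteasome subunits moved apart from their constitutive counterparts was looked at within each array. The offset between 2 probe sets has no meaning of its own, so only its change between arrays is given. Psmb8 minus Psmb5 was -1.51, -1.60, -1.59 and -1.51 in KO 1 to KO 4, against -1.57, -1.44, -1.46 and -1.39 in WT 1 to WT 4. For Psmb9 minus Psmb6 the values were 0.22, 0.31, 0.39 and 0.40 in KO 1 to KO 4, against 0.25, 0.49, 0.33 and 0.54 in WT 1 to WT 4. Psmb10 minus Psmb7 gave 1.27, 1.19, 1.31 and 1.496 in KO 1 to KO 4, against 1.30, 1.14, 1.16 and 1.25 in WT 1 to WT 4. The genotypes overlapped in all 3 pairs, with mean changes of -0.09, -0.07 and 0.10. These 8 arrays therefore show no separation of the inducible from the constitutive subunits, which differs from showing that their balance is the same.

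The promoters of Psmb8 (RefSeq, GRCm38.p6, chr17:34197945-34198244, plus strand) and Psmb9 (chr17:34187281-34187580, minus strand) are printed because both genes lie in the MHC class II region of chromosome 17, where the annotation orders the genes as H2-DMb2, H2-DMb1, Psmb9, Tap1, Psmb8, Tap2 and H2-Ob. Capitals mark TTCNNNGAA, the core letters of the GAS element bound by STAT factors, in Psmb8, and CCAAT read on the opposite strand in Psmb9.
Psmb8: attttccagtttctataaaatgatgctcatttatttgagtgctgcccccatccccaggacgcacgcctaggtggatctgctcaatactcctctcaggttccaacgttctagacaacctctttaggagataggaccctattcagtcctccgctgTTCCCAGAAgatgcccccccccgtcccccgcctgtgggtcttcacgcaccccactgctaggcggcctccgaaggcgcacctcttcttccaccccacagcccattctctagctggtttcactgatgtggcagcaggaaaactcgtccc
Psmb9: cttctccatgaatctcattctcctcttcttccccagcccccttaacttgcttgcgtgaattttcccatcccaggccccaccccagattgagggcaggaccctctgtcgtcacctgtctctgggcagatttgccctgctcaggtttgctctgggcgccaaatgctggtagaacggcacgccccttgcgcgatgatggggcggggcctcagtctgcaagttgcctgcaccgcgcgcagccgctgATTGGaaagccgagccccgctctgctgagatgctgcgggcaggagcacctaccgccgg
The Psmb9 window and that of Tap1, on the opposite strand, share 275 bases. Tap1, a chain of the peptide transporter, was looked at after its value was seen. It had 11.26, 11.23, 11.17 and 11.38 in KO 1 to KO 4 and 11.30, 11.23, 11.27 and 11.37 in WT 1 to WT 4, which overlapped (difference -0.03 ± 0.059; adjusted p = 0.758). Within each array, Psmb9 minus Tap1 was -2.09, -2.02, -1.96 and -2.02 in KO 1 to KO 4, against -1.92, -1.63, -1.85 and -1.72 in WT 1 to WT 4. Every KO value was the lower, by 0.24 on average, which is given without a test because the pair was chosen for its values.

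The noncatalytic beta subunits Psmb1 to Psmb4 had a median difference of -0.10. None was called, where 8.53% of all tested genes were called lower and 4.45% higher (limma). At an unadjusted p under 0.05, 1 of the 4 lay lower, or 25%, against 19.2% of all genes. Psmb4 differed by -0.13, Psmb2 by -0.11 and Psmb3 by -0.08. Psmb1 was the least shifted of the Psmb genes, with 9.25, 9.36, 9.24 and 9.31 in KO 1 to KO 4 and 9.17, 9.45, 9.34 and 9.48 in WT 1 to WT 4. Its groups overlapped in part, with WT 1 the lowest of all 8 arrays and WT 2 and WT 4 above every KO array (difference -0.07, 95% interval -0.23 to 0.09, adjusted p = 0.555). Psmb11, the thymoproteasome subunit of cortical thymic epithelial cells, read 5.03, 4.91, 5.13 and 4.999 in KO 1 to KO 4 and 5.10, 4.73, 5.01 and 5.01 in WT 1 to WT 4. All 8 values lay below the filter.

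The ATPase ring of the base unfolds substrates. All 6 Psmc genes lay below 0, with a median of -0.17, and 5 of them did so at an unadjusted p under 0.05, but 1 passed the adjusted test (83.3% and 16.7%, against 19.2% and 8.53% of all tested genes). Psmc5 had 7.76, 7.89, 7.77 and 7.82 in KO 1 to KO 4, against 8.03, 8.07, 7.93 and 8.17 in WT 1 to WT 4. No KO array reached the lowest WT array, WT 3, and KO 2 came closest to it. The difference was -0.24 ± 0.061, 1.18-fold lower in KO (adjusted p = 0.0317), and the call was lost without KO 1, KO 3, KO 4, WT 2 or WT 4 (adjusted p up to 0.0853). Psmc2 differed by -0.23 (adjusted p = 0.0846), with WT 1 inside the range of the KO arrays, and it was called when WT 1 was left out (adjusted p = 0.0330). Psmc4 differed by -0.18 without overlap (adjusted p = 0.0623). The differences of Psmc1 and Psmc3 were -0.17 and -0.14. The smallest was that of Psmc6, with 9.67, 9.78, 9.83 and 9.83 in KO 1 to KO 4 and 9.83, 9.84, 9.87 and 9.99 in WT 1 to WT 4, where KO 3 and KO 4 lay just above WT 1 and below the other WT arrays (difference -0.11, adjusted p = 0.257).

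The 14 Psmd genes encode the rest of the base, the lid and chaperones of the base. All 14 lay below 0 (median -0.18), 4 fell (28.6%, against 8.53% of all tested genes) and 8 lay lower without overlap between the genotypes (57.1%, against 13.5%). In the base, Psmd1, a large scaffold, had 9.71, 9.61, 9.68 and 9.70 in KO 1 to KO 4, against 9.85, 9.87, 9.81 and 9.998 in WT 1 to WT 4. Its groups did not overlap, and the difference was -0.21 ± 0.055, 1.15-fold lower in KO (adjusted p = 0.0363). Psmd2, the second scaffold, differed by -0.18 (adjusted p = 0.121). Psmd4, a ubiquitin receptor, was the least shifted of the family, with 9.13, 9.04, 9.06 and 9.13 in KO 1 to KO 4 and 9.11, 9.05, 9.18 and 9.19 in WT 1 to WT 4. Its groups overlapped (difference -0.04, 95% interval -0.16 to 0.07, adjusted p = 0.617).

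In the lid, all 8 genes lay below 0 with a median of -0.18, 5 showed no overlap (62.5%, against 13.5% of all tested genes) and 2 fell (25%, against 8.53%). Psmd8 had 11.10, 11.07, 11.04 and 11.12 in KO 1 to KO 4, against 11.28, 11.30, 11.24 and 11.30 in WT 1 to WT 4. The genotypes did not overlap, and the difference was -0.20 ± 0.044, 1.15-fold lower in KO (adjusted p = 0.0195). Psmd13 had 8.11, 8.10, 8.03 and 8.12 in KO 1 to KO 4, against 8.33, 8.28, 8.23 and 8.22 in WT 1 to WT 4. It showed the smallest difference among the called members, -0.18 ± 0.048, 1.13-fold lower in KO (adjusted p = 0.0373). Psmd14, the deubiquitinase of the lid, differed by -0.19 without overlap and just missed the threshold (adjusted p = 0.0690). Psmd3 and Psmd12 also showed no overlap, with differences of -0.17 and -0.16 (adjusted p = 0.0835 and 0.101). Psmd7, Psmd6 and Psmd11 differed by -0.22, -0.21 and -0.15, with WT 1 inside the range of the KO arrays in each of them.

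Chaperones of the base hold ATPase modules until they are assembled. Psmd10, known as gankyrin, had 9.08, 9.05, 8.85 and 9.07 in KO 1 to KO 4, against 9.25, 9.25, 9.29 and 9.27 in WT 1 to WT 4. The WT arrays lay close together, and KO 3 stood apart below the other KO arrays. The difference was -0.25 ± 0.060, 1.19-fold lower in KO (adjusted p = 0.0249), and it was -0.20 without KO 3, where it was still called. Psmd9 differed by -0.15 without overlap (adjusted p = 0.1596) and Psmd5 by -0.06 (adjusted p = 0.566). Of the 4 called Psmd genes, Psmd10 was lost without WT 2 or WT 3 (adjusted p up to 0.0631) and Psmd8 without KO 3 or WT 2 (up to 0.0566). Psmd1 was called only without WT 3 (otherwise up to 0.0858), and Psmd13 only without WT 4 (up to 0.1001).

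Chaperones of the core gave both ends of the range, and 1 of the 4 fell (25%, against 8.53% of all tested genes). PSMG1 and PSMG2 form a pair that guides the alpha ring, and PSMG3 and PSMG4 form another. Psmg1 had 8.51, 8.66, 8.58 and 8.53 in KO 1 to KO 4, against 8.94, 8.86, 8.95 and 8.91 in WT 1 to WT 4. The highest KO array, KO 2, lay clearly below the lowest WT array, WT 2. The mean was 8.57 ± 0.068 in KO cells and 8.91 ± 0.040 in WT cells (SD, n = 4 each), a difference of -0.34 ± 0.051 (95% interval -0.46 to -0.23), 1.27-fold lower in KO (adjusted p = 0.00333). Its adjusted p ranged from 0.00484 to 0.0136 over the 8 fits that leave out 1 array. Its promoter (RefSeq, GRCm38.p6, chr16:95990911-95991210, minus strand) is shown because Psmg1 had the largest difference of the members and its window holds 3 of the 6 motifs searched, in capitals: TTCNNNGAA, CCGGAAG, the core letters of ETS factors, and GCGCANGCG, those of nuclear respiratory factor 1, whose matches on both strands overlap.
Psmg1: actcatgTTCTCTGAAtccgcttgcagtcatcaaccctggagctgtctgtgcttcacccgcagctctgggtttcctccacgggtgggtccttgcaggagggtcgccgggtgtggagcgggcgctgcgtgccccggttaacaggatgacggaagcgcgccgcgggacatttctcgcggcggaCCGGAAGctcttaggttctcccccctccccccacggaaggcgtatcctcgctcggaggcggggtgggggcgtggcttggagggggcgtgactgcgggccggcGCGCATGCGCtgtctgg
The partner gene Psmg2 had 8.85, 8.86, 8.81 and 8.85 in KO 1 to KO 4 and 8.82, 8.83, 8.93 and 8.90 in WT 1 to WT 4, which overlapped (difference -0.03, 95% interval -0.13 to 0.08, adjusted p = 0.741). The intervals of Psmg1 and Psmg2 do not overlap, and the difference between the genes was not tested. Psmg3 differed by -0.09 (adjusted p = 0.362). Psmg4 had 7.27, 7.24, 7.36 and 7.44 in KO 1 to KO 4 and 7.27, 7.36, 7.34 and 7.30 in WT 1 to WT 4. It was the one tested member above 0, at 0.01 (95% interval -0.12 to 0.14, adjusted p = 0.927), and it lay below 0 when each array was centred on its median (-0.023).

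The alternative caps and the inhibitor showed small differences. None of the 4 Psme genes or Psmf1 was called, where 8.53% of all tested genes were called lower and 4.45% higher (limma). At an unadjusted p under 0.05, 1 of the 5 lay lower, or 20%, against 19.2% of all genes. With so few genes, these counts do not set them apart from all genes or from the other members. Their median difference was -0.08. Psme4, the PA200 cap, had 9.75, 9.66, 9.72 and 9.73 in KO 1 to KO 4, against 9.86, 9.79, 9.81 and 9.84 in WT 1 to WT 4. These did not overlap, but the difference was -0.11 ± 0.045 (adjusted p = 0.135). Psme1 and Psme2 encode the interferon-inducible PA28 cap. Psme1 had 10.03, 10.07, 9.98 and 10.08 in KO 1 to KO 4, against 10.07, 10.10, 10.18 and 10.22 in WT 1 to WT 4. Psme2 had 8.38, 8.21, 7.91 and 8.14 in KO 1 to KO 4, against 8.09, 8.30, 8.25 and 8.33 in WT 1 to WT 4. Both overlapped, and Psme2 had its highest value in KO 1 and its lowest in KO 3 (differences -0.10 and -0.08, adjusted p = 0.214 and 0.651). Psme3, the nuclear cap, had 8.94, 8.95, 8.96 and 8.98 in KO 1 to KO 4 and 8.92, 8.98, 8.96 and 9.05 in WT 1 to WT 4. Psmf1, which encodes the inhibitor PI31, had 9.42, 9.38, 9.39 and 9.30 in KO 1 to KO 4 and 9.42, 9.29, 9.45 and 9.36 in WT 1 to WT 4. For these genes the groups overlapped almost fully, with differences of -0.02 (95% interval -0.12 to 0.08) and -0.01 (-0.13 to 0.11), intervals that leave out the difference of Psmg1, Psma1 or Psmb8 but not small ones. Psmf1 lay above 0 after a second quantile normalization (0.0025).

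The lower level was present in each KO array. The mean level of the 44 was 9.23, 9.22, 9.16 and 9.23 in KO 1 to KO 4, against 9.33, 9.36, 9.35 and 9.43 in WT 1 to WT 4. In this mean the genotypes did not overlap. In KO 1 to KO 4, 39, 42, 42 and 41 of the 44 members were below the WT mean, and in WT 1 to WT 4 this held for 29, 25, 29 and 10. KO 3 was the lowest KO array in 24 members, and WT 4 the highest WT array in 24. WT 1 was uneven: it was the lowest WT array in 20 members, 3 of them called, and the highest in 10, 5 of them called. Psmb4, Psmc2 and Psmd6 were among the genes lowest in WT 1, and in each of them WT 1 lay below KO 1.

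**Figure D4:**
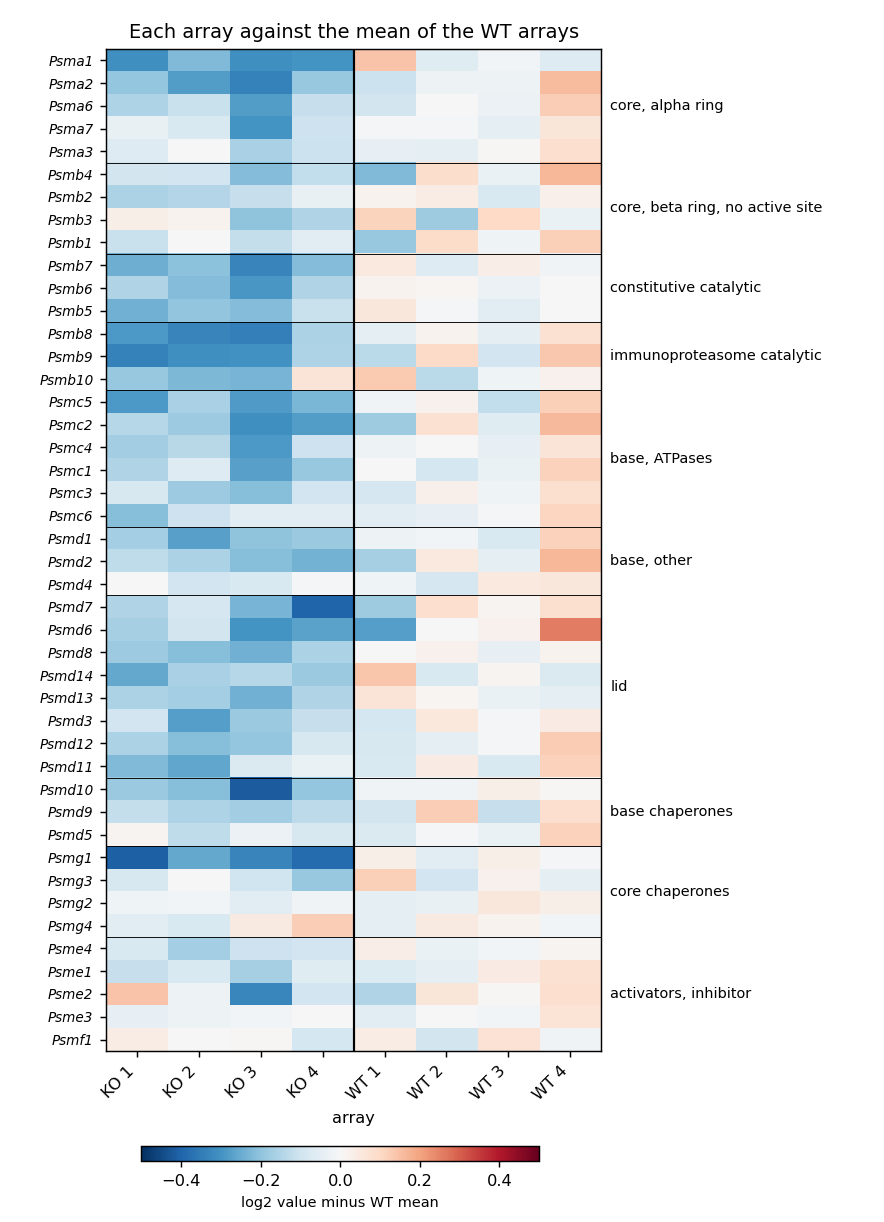
Log2 value of each of the 44 members in each array minus the mean of the WT arrays, KO arrays left of the line and WT arrays right of it, with blue below and red above the WT mean. Between 39 and 42 members are below the WT mean in each KO array, and 10 are in WT 4.

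The number of called members depended on single arrays more than the direction did. It was 7 without KO 1, 7 without KO 2, 5 without KO 3 and 9 without KO 4. It was 13 without WT 1 (10 of them among the original 13), 4 without WT 2, 8 without WT 3 and 8 without WT 4. The share of all genes called lower in those fits was 4.26% to 8.16%. Psma1, Psmb7, Psmb8 and Psmg1 were called in every one of them, and 42 or 43 of the 44 members stayed below 0. After removal of KO 1 and KO 2 together, the arrays with the most Hspa1a and Hspa1b RNA, 1 member was called, Psmg1, where 1.05% of all genes were called lower, and the median difference of the members was -0.17.

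Heat-shock and cell-cycle genes, which also varied between the arrays, were set beside the members. The heat-shock genes Hspa1a and Hspa1b, which respond to heat and other stress, averaged 10.3, 9.79, 4.57 and 8.25 in KO 1 to KO 4, against 5.27, 6.36, 8.58 and 6.74 in WT 1 to WT 4. KO 3 had the lowest value of these and also the lowest proteasome mean. The part of the heat-shock level in the proteasome difference was not tested beyond the fits given here. With their mean as a covariate, 8 of the 13 calls were made, where 4.52% of all genes were called lower, and the median difference of the members was -0.17, against -0.16 without the covariate. Psmb5, Psmb9, Psmc5, Psmd1 and Psmd13 were lost in that fit. Of 9 tested heat-shock genes none was called, where 8.53% of all tested genes were called lower and 4.45% higher (limma). At an unadjusted p under 0.05, 1 of the 9 lay higher, as did 1157 of all 11585 tested genes. The lowest p was that of Bag3, a co-chaperone, with a difference of 0.23 (adjusted p = 0.0711).

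Of 11 tested cell-cycle genes, 5 fell (45.5%, against 8.53% of all tested genes; median -0.53), among them Mcm2 (-0.44, adjusted p = 0.000745) and Mcm5 (-0.55, adjusted p = 0.00174) of the replication helicase, Cdk1 (-0.67, adjusted p = 0.0189) and Top2a (-0.75, adjusted p = 0.0286). That count was 2 without KO 1, WT 2 or WT 3, 3 without KO 2 or KO 3, and 8 without WT 4. Their mean was 8.13, 8.06, 8.19 and 8.36 in KO 1 to KO 4, against 8.71, 8.85, 8.76 and 8.34 in WT 1 to WT 4. WT 4 lay among the KO arrays in this mean. Its proteasome mean was the highest of all 8 arrays. The part of cell cycling in the proteasome difference was not tested.

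**Figure D5:**
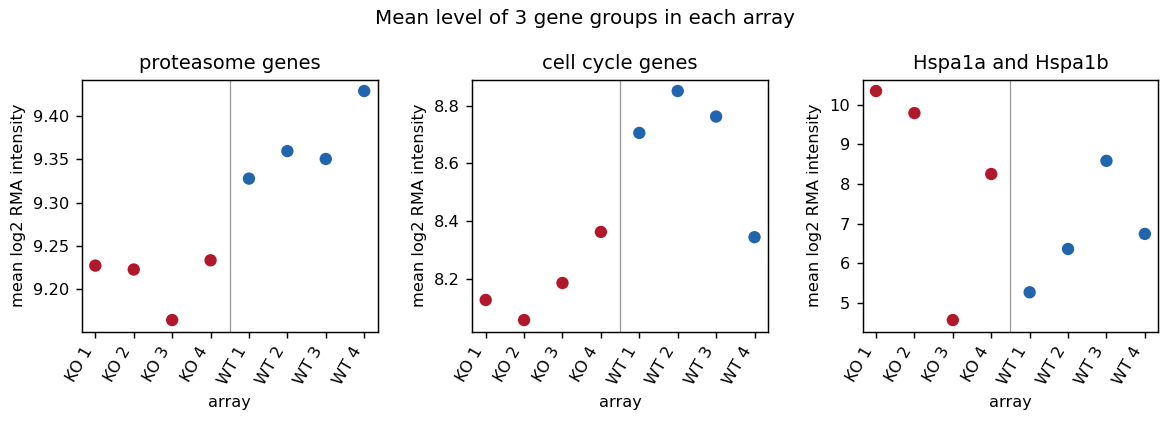
Mean log2 RMA intensity in each array, KO left of WT, of the 44 proteasome members, of 11 cell-cycle genes and of Hspa1a with Hspa1b, each on its own axis. The proteasome mean separates the genotypes, while WT 4 at 8.34 falls among the KO arrays for cell-cycle genes and the heat-shock genes overlap.

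Genes that work with the proteasome were examined from lists outside the name pattern. Of 16 tested proteasome factors, 1 fell (median -0.07), or 6.25%, against 8.53% of all tested genes. The difference was below 0 in 12 of the 16, or 75%, against 59.1% of all tested genes, and ranged from -0.27 to 0.08. At an unadjusted p under 0.05, 7 lay lower, or 43.8%, against 19.2% of all genes, and in 5, or 31.2%, every KO array lay below every WT array, against 13.5%. Midn, which carries proteins to the proteasome without ubiquitin, had 9.68, 9.61, 9.74 and 9.74 in KO 1 to KO 4, against 9.90, 9.90, 10.003 and 10.01 in WT 1 to WT 4. The groups did not overlap, and the difference was -0.26 ± 0.054, 1.197-fold lower in KO (adjusted p = 0.0143), called in all 8 fits that leave out 1 array. Sem1, a small lid subunit, differed by -0.23 (adjusted p = 0.0811), and the ubiquitin-binding shuttles Rad23b and Ubqln1 by -0.16 and -0.16 (adjusted p = 0.0839 and 0.0948). The p97 ATPase extracts ubiquitylated proteins. Of 9 tested genes of ubiquitin and p97, none was called, where 8.53% of all tested genes were called lower and 4.45% higher (limma). At an unadjusted p under 0.05, 1 lay lower, or 11.1%, against 19.2% of all genes. Vcp, encoding p97, differed by -0.18 (adjusted p = 0.142).

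Among 6 genes that control proteasome transcription, 1 rose, where 4.45% of all tested genes were called higher. Ngly1, the deglycosylase needed to activate NFE2L1, had 9.75, 9.84, 9.75 and 9.81 in KO 1 to KO 4, against 9.56, 9.54, 9.61 and 9.39 in WT 1 to WT 4. All KO arrays lay above all WT arrays, 1.2-fold higher (difference 0.26 ± 0.059, adjusted p = 0.0193), and the call held in all 8 fits that leave out 1 array (adjusted p up to 0.0496). With Hspa1a and Hspa1b as a covariate its difference was 0.25 and its adjusted p was 0.0550. Nfe2l1 itself differed by -0.07 (adjusted p = 0.358). Nfyb and Nfyc, subunits of NF-Y, differed by -0.18 and -0.07 (adjusted p = 0.191 and 0.343).

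Genes of class I presentation and of immunoproteasome control were examined beside Psmb8 to Psmb10. Of 11 tested class I genes none was called, where 8.53% of all tested genes were called lower and 4.45% higher (limma). At an unadjusted p under 0.05, 3 lay lower, or 27.3%, against 19.2% of all genes. The median difference was -0.07. Tapbp and Calr, which load peptides on class I molecules, differed by -0.18 and -0.13 (adjusted p = 0.0715 and 0.0770). Erap1, the peptide-trimming protease, differed by -0.15 (adjusted p = 0.0972). When each array was centred on its median, 3 of the 11 class I genes were called lower, where 11.4% of all genes were. Of 5 tested regulators of the immunoproteasome, 1 fell (20%, against 8.53% of all tested genes). Ifngr2, a chain of the interferon gamma receptor, had 10.61, 10.49, 10.48 and 10.46 in KO 1 to KO 4, against 10.66, 10.77, 10.77 and 10.69 in WT 1 to WT 4, without overlap. It was 1.16-fold lower in KO (difference -0.21 ± 0.054, adjusted p = 0.0313), and the call was lost without KO 2, KO 3, KO 4, WT 2 or WT 3 (adjusted p up to 0.0816). Irf1, an interferon-induced activator of these subunits, differed by -0.12 (adjusted p = 0.394).

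Promoter letters were compared with those of all genes for 37 of the 44 tested members that have a RefSeq window. Each motif was searched on both strands over 300 bases. CCGGAAG was in 14 member windows, or 37.8%, against 9.93% of 27025 genes, and GCGCANGCG in 6, or 16.2%, against 7.03%. GAAANNGAA, the core of interferon response elements, was in 7, or 18.9%, against 9.76%. TGACNNNGC was in 6, or 16.2%, against 14%, and CCAAT in 13, or 35.1%, against 41.1%. TTCNNNGAA was in 3, or 8.11%, against 9.55%. Of the 12 called members with a window, 4 held CCAAT, 3 GCGCANGCG, 2 TGACNNNGC, 2 TTCNNNGAA, 2 CCGGAAG and 0 GAAANNGAA. These counts are to be read beside the shares of the 37 members and of all genes just given. The 27025 genes were not limited to those tested on the arrays. A match describes letters in this window only.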

How the data were processed

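Nanogram amounts of RNA from sorted CD4SP thymocytes were amplified and biotinylated for 8 Mouse Gene 2.0 ST arrays, 4 KO and 4 WT, per the labels' protocols. The deposited values are log2 intensities per probe set, which the authors computed by RMA; the submitters' processing notes name Affymetrix Expression Console 1.1. For genome build, annotation release and any earlier filter, nothing is stated in the sources used here. The table holds 41345 probe sets with values from 2.14 to 13.56. Probe sets were named through the platform annotation, which can be old: 23521 have 1 symbol, 1814 several (not used) and 16010 none there. A total of 4 probe sets carry a proteasome symbol beside another one, among them both of Psma4, and were left out.

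The brightest probe set stood for a gene. Genes with a mean below 5.56, the median over the probe sets, were left out, which kept 11585 genes. The comparison of KO with WT used the functions lmFit and eBayes of limma 3.58.1 (R 4.3.3), two-sided and with genotype only, with Benjamini-Hochberg adjustment over all tested genes, and every adjusted p printed comes from such a fit. The script was tested on simulated data. Each difference is the KO mean minus the WT mean, in log2 units. RMA and amplification compress the differences of dim genes, and precision is limited by the number of arrays. No total count or depth exists for arrays.

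The members and all gene lists were chosen with earlier results of these data known, so no list was tested as a set, and counts of called members are read against the share of all genes. Named were the catalytic subunits, every called member, the extremes of each subfamily, members below the filter, and up to 4 genes of each related list, called ones first and then by p. Other members are given by their difference, most with its adjusted p. Tap1 was named after its value was seen.

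Alternatives were no intensity filter, a higher filter (6), averaged probe sets, centring, a second quantile normalization, array weights, the mean of Hspa1a and Hspa1b or the sample number of the titles as a covariate, an adjusted p of 0.01, and each array left out. Leaving out KO 1 and KO 2 together was chosen after seeing the data. Promoters are RefSeq windows of 300 bases (GRCm38.p6), searched for 6 motifs on both strands; 7 tested members (Psmb1, Psmb2, Psmb7, Psmc3, Psmd3, Psmd7 and Psmg2) had none and were not searched.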

Additional observations from a re-analysis of the deposited data

Results flagged for a closer look

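In 7 of the 158 genotype groups of 4 arrays looked at, among members and related genes, 1 array stood apart by more than the 95% critical value of Dixon's test, and chance flags about 1 in 20 groups. Psma1 was highest among the KO arrays in KO 2, at 10.01, where the nearest other KO array was at 9.93. Psmb10 was highest in KO 4, at 10.89, with the nearest KO array at 10.64. Psmd10 was lowest in KO 3, at 8.85, with the nearest KO array at 9.05, and Psmg2 was lowest in KO 3, at 8.81, with the nearest at 8.85. Erap1 was highest in KO 4 among the KO arrays, at 9.91, with the nearest at 9.79. Rad23b was highest in WT 4 among the WT arrays, at 9.86, with the nearest at 9.78. Ufd1, a cofactor of p97, was highest in WT 2, at 9.54, with the nearest WT array at 9.402.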

How the results depend on the processing

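The direction of the members held more often than their calls. Over all alternatives, 811 of 827 values of single members kept their sign and 16 turned, all of them in members that were not called. That total includes values that could not turn. No intensity filter, the 0.01 threshold and the higher filter leave each difference as it was (46, 46 and 45 values). Averaging changes only members with more than 1 probe set. Members called lower numbered 13 in the fit as described, where 8.53% of all genes were called lower. They numbered 4 with no intensity filter (2.51% of all genes) and 8 with Hspa1a and Hspa1b as a covariate (4.52%). At an adjusted p under 0.01 the count was 1 (2.07%), and without KO 1 and KO 2 it was 1 (1.05%). With 1 array left out it was 4 to 13 (4.26% to 8.16%). The median log2 difference of proteasome members was -0.17 to -0.12 with 1 array left out, and -0.20 after centring, where the median of all genes was -0.06. Genes called higher in KO numbered 515 in all, 206 at an adjusted p under 0.01, 136 without KO 1 and KO 2, and 302 to 496 with 1 array left out. Genes called lower in KO numbered 988, and 556 with no filter, 524 with the heat-shock covariate, 240 at an adjusted p under 0.01, 122 without KO 1 and KO 2, and 493 to 945 with 1 array left out. The cause of these changes was not tested, beyond the wider adjustment with no filter and the fewer arrays in the smaller fits.

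Psmb8 stayed at -0.28 (adjusted p = 0.0138), short of a threshold of 0.01, and was -0.25 (adjusted p = 0.130) without KO 1 and KO 2. Psmb9 was -0.28 with no filter (adjusted p = 0.0726), -0.27 with the heat-shock covariate (adjusted p = 0.0879), -0.28 (adjusted p = 0.0381) against the 0.01 threshold, -0.23 (adjusted p = 0.244) without KO 1 and KO 2, and -0.32 to -0.23 with 1 array left out. Signs turned in 6 members that were not called. With 1 array left out, Psme2 ranged from -0.15 to 0.0072, Psme3 from -0.039 to 0.0029, Psme3ip1 from -0.066 to 0.012, Psmf1 from -0.042 to 0.014 and Psmg4 from -0.027 to 0.039. Psme3ip1 was 0.014 without KO 1 and KO 2. Psmf1 was 0.0025 after a second quantile normalization and 0.0057 with the sample number as a covariate. Psmg2 was 0.037 as the mean of its probe sets. Psmg4 was -0.023 after centring, -0.028 after a second quantile normalization and -0.014 with the sample number. No paired analysis was possible because the labels give the arrays no replicate numbers shared between the genotypes. Signal over background limits the reading of Psma5, Psma8 and Psmb11, which lay below the filter.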

Other observations

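Pomp, which encodes a maturation factor of the beta ring, was looked at after its value was seen, since it had the largest difference among the proteasome factors outside the name pattern. It had log2 values of 8.83, 8.59, 8.99 and 8.91 in KO 1 to KO 4, against 8.86, 9.07, 9.24 and 9.22 in WT 1 to WT 4. WT 1 lay inside the range of the KO arrays, and the difference of -0.27 ± 0.11 (SE) did not pass the test (adjusted p = 0.125, limma). The dimmer of the probe sets of Psmc2 and Psmg2 differed by -0.14 and 0.10, where the brighter ones differed by -0.23 and -0.03.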
